A study of Mus musculus with 6 samples.

Results

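The integrin genes of T cells were examined by RNA-seq in activated mouse CD4 T cells that carried a retrovirus with or without the cDNA of Blimp-1. The genes were chosen by name: 10 integrin subunit genes, Itgal, Itgb2, Itgb1, Itgb7, Itgb3, Itga4, Itga6, Itgae, Itgav and Itga1, of 22624 genes in all. Each was found in the deposited table by its symbol, and 14 transcripts of that table belonged to them. Spleen and lymph node of WT mice of the C57/BL6 background gave the naive cells, sorted for a naive phenotype that included CD4+, CD44lo and CD25neg, which were stimulated on plate-bound antibodies to CD3 and CD28 for 36 hours, with IL-4 and IFN-γ blocked by antibodies. This is the Th0 state, activation without polarising cytokines. The cells were then transduced and kept for 2 days, and those with the GFP marker of the vector were sorted. In 3 control libraries the cells carried the empty MigR1 vector, and in 3 they carried MigR1 with the cDNA of Blimp-1, a transcriptional repressor encoded by Prdm1. Sorting on GFP selects transduced cells in both groups, and the cells keep their own Prdm1 gene. Another label gives the stimulation as 3 days.

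Integrins are adhesion receptors made of 1 α and 1 β chain, and a chain needs its partner to reach the cell surface. On T cells, αL with β2 forms LFA-1, which binds ICAM molecules on antigen-presenting and endothelial cells. The chain α4 pairs with β1 to bind VCAM-1 and fibronectin, and with β7 to bind MAdCAM-1 of gut vessels, while αE pairs with β7 to bind E-cadherin of epithelium. The chains α1 and α6 pair with β1 and bind collagen and laminin, and αv with β3 or β1 binds matrix proteins such as vitronectin and fibronectin.

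Promoter sequences were taken from RefSeq for GRCm38.p6, in which 5 of the 10 genes matched (Itga1, Itga4, Itgav, Itgb1 and Itgb7). Those of Itgb1 and Itgb7 are shown because the ratio of these genes was the only one of the 6 ratios between β chains whose groups did not overlap. Each is the 250 bases before the annotated start, 5′ to 3′ on the strand of the gene, chr8:128685404-128685653 on the plus strand for Itgb1 and chr15:102231936-102232185 on the minus strand for Itgb7. Capitals mark GAAAG on either strand (CTTTC as printed for the opposite strand), the core of the sequences to which Blimp-1 is known to bind.
Itgb1: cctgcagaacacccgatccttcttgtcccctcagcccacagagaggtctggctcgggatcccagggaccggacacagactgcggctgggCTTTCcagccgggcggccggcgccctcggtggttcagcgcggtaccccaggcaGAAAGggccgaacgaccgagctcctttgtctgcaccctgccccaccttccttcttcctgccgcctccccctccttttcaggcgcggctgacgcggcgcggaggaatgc
Itgb7: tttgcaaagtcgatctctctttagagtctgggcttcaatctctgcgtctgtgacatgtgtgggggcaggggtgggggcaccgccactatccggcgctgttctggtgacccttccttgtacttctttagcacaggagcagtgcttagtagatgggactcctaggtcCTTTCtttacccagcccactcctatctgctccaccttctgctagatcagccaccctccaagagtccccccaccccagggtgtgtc
GAAAG occurred 2 times for Itgb1, 1 time for Itgb7 and 3 times for Itga1, and did not occur for Itga4 and Itgav. Of 32851 promoter windows of this length, 51.5% held it, so these matches are a description only. The longer motif AGNGAAAG, which contains GAAAG, occurred in 7.3% of the windows and in none of the 5 matched here.

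By an estimate from the lowest values, depth was 17.0 to 38.9 M reads in the control libraries and 33.9 to 46.8 M in the Blimp-1 libraries. The check of the labels was Prdm1, at 0.996, 2.03 and 1.38 FPKM in empty vector replicates 1, 2 and 3 and at 9.91, 12.8 and 9.45 in those with Blimp-1. FPKM relates reads to transcript length and library size, so levels can be compared between genes, provided that the unit, which was inferred from the tools named and the values, is FPKM. Summed CD4 T cell markers (8 genes, Cd3g the highest) were at 1920 to 2240 FPKM in the control libraries, compared with 1940 to 2130 with Blimp-1. Cd8a stayed at 0.1005 to 0.169 FPKM, and Cd8b1 was at 7.01 to 10.9. Of 7 B cell markers 5 stayed below 1 FPKM everywhere, and their sum was 5.39 and 6.46 FPKM in the replicate 2 libraries against 1.78 to 2.45 in the others. Of 7 NK cell markers Ncr1 was listed at 0 in all 6 libraries, and their sum, mostly Klrd1, was 14.9, 30.9 and 3.92 FPKM in the control libraries, compared with 17.3, 44.1 and 14.7 with Blimp-1. Of 7 platelet and megakaryocyte markers 3 were listed at 0 throughout, Gp1ba was the highest at 0.572 to 1.343 FPKM, and their sum was 1.54 to 2.30 FPKM. The sum of 4 erythroid markers, mostly Hba-a1, was 2.72, 2.43 and 19.3 FPKM in the control libraries, compared with 1.06, 0.893 and 3.42 with Blimp-1, lower in 3 of 3 pairs, and its part in the integrin values was not tested. In bulk RNA, fewer cells of a type and less RNA per cell cannot be told apart.

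The 10 genes spanned a wide range of levels. Itgb7 was the highest, at a mean of 238 FPKM over the 6 libraries, followed by Itgb2 at 113, Itgal at 79.6, Itgb1 at 51.5, Itgb3 at 25.9, Itga4 at 20.3, Itgav at 11.5 and Itga6 at 11.4. Itgae lay far lower, at 1.12 FPKM, and Itga1 was close to the floor. The 4 β chains were among the 5 most abundant of the 10 genes. The ranges of Itgb7 and Itgb2 did not overlap, nor did those of Itgb1 and Itgb3, Itga6 and Itgae, or Itgae and Itga1. Itgav and Itga6 could not be ordered, with Itgav above Itga6 in 3 of 6 libraries. Itgb2 exceeded Itgal in 5 of 6 and Itgb3 exceeded Itga4 in 5 of 6. Together with 16 other integrin subunits, the sum was 533 to 634 FPKM per library, and the 10 genes made up 91.4% to 92.9% of it.

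**Figure D1:**
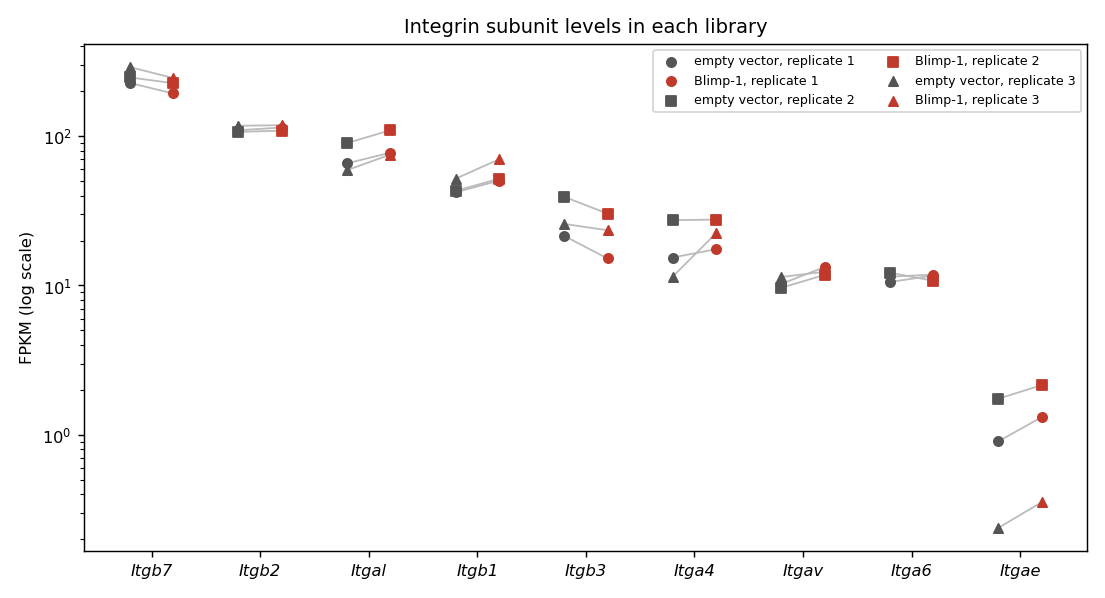
FPKM (log axis) of the 9 integrin genes that were tested, in each library. Grey symbols are the empty vector, red symbols are Blimp-1, shapes mark the replicate, and lines join libraries of the same replicate number. Itgb7 is at 193 to 291 FPKM and Itgae at 0.238 to 2.15, and most lines run in 1 direction within a gene. Itga1 is left out because it stayed below 1 FPKM and was not tested.

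The comparison of the vectors asks what forced Blimp-1 does to the adhesion receptors of activated T cells. Within replicate pairs, Itgal, Itgb1, Itgb2, Itga4, Itgav and Itgae were higher with Blimp-1 in 3 of 3 pairs, Itgb7 and Itgb3 were lower in 3 of 3, and Itga6 was mixed. For the 8 genes above 5 FPKM the pairs differed by 1.0% to 35.0%, apart from Itga4 in replicate 3 (95.7%), and none passed the test over all genes. Genes were tested where 1 FPKM or more was reached in at least 3 of 6 libraries, which 9 of the 10 did. Limma on log2(FPKM + 1) without a replicate term called 0 of the 9 (adjusted p = 0.998 for each), where 0% of all 10864 genes were called, and none of the 9 had an unadjusted p below 0.05 against 1.13% of all genes. With the replicate number as a block it again called 0 of 9, and 0.0184% of all genes. At an unadjusted p below 0.05 this blocked fit had Itgal, Itgb1 and Itgav, 3 of the 9, as higher, against 9.78% of all genes, and Itgb7 and Itgb3, 2 of the 9, as lower, against 10.7%. Of the 9 genes 6 were higher in 3 of 3 pairs and 2 lower, against 22.8% and 22.8% of all genes. Itgav was the 1 gene of the 9 whose groups did not overlap, higher with Blimp-1, as for 2.29% of all genes. The median log2 fold change was 0.20 over the 9 genes and -0.01 over all genes tested.

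**Figure D2:**
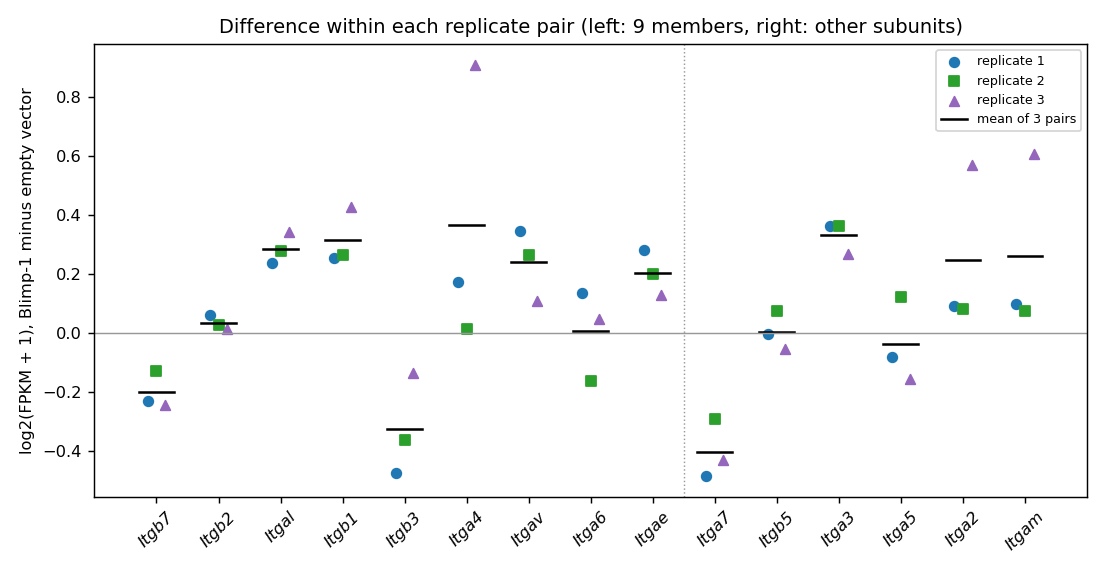
Difference in log2(FPKM + 1), Blimp-1 minus empty vector, in each replicate pair (coloured symbols) and the mean of 3 pairs (black bars). The dotted line separates the 9 tested members from the 6 other integrin subunits that were tested. Itgal, Itgb1 and Itgav lie above 0 in each pair, Itgb7, Itgb3 and Itga7 lie below 0 in each pair, and Itga4 in replicate 3 stands apart at 0.91.

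Itgal, the αL chain of LFA-1, was at 65.8, 90.0 and 59.2 FPKM in empty vector replicates 1, 2 and 3 and at 77.6, 109 and 75.3 with Blimp-1. The Blimp-1 library was the higher one of each pair, by 18.0%, 21.6% and 27.2%, yet the groups overlapped because replicate 2 was high with both vectors. Mean levels were 71.7 ± 16.2 and 87.5 ± 19.1 FPKM (SD, n = 3 each). The log2 fold change was 0.29, with SE 0.21 without the block and 0.06 with it (limma adjusted p = 0.998 and 0.144). The table lists 4 transcripts of Itgal, and the most abundant made up 36.2% to 53.2% of the gene in the 6 libraries. It was at 34.1 ± 12.5 FPKM in the control libraries, compared with 41.2 ± 10.5 with Blimp-1 (SD, n = 3 each). The mean of each of the 4 transcripts was higher with Blimp-1, although reads shared by transcripts are divided by estimation. Beyond replicate and vector, 0.6% of the variation of Itgal remained.

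Itgb2, the β2 chain that pairs with αL and with the myeloid chains αM and αX, was nearly level. It was at 110, 107 and 117 FPKM in the control libraries, compared with 114, 109 and 119 with Blimp-1. The pairs differed by 4.3%, 1.9% and 1.0%, all less than the spread between replicates, and mean levels were 111 ± 5.45 and 114 ± 4.85 FPKM (SD, n = 3 each). The log2 fold change was 0.03 (SE 0.06 with the block, limma adjusted p = 0.767). Of the other α partners, Itgam was at 0.336 to 1.32 FPKM and Itgax at 0 to 0.022, so Itgal was the highest of these α partners in each library. Csf1r, a macrophage marker, was listed at 0 in 5 of 6 libraries and at 0.00654 FPKM in empty vector replicate 2.

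Itgb1, the β1 chain shared by the collagen, laminin and fibronectin receptors, was at 42.1, 43.0 and 51.9 FPKM in the control libraries, compared with 50.4, 51.9 and 70.0 with Blimp-1. It was higher with Blimp-1 by 19.8%, 20.7% and 35.0% in replicates 1, 2 and 3. The groups overlapped only through empty vector replicate 3, which lay between the Blimp-1 replicates. Mean levels were 45.6 ± 5.41 and 57.4 ± 10.9 FPKM (SD, n = 3 each), the Blimp-1 mean being 1.26 times that of the control. The log2 fold change was 0.32 (SE 0.17 without the block, 0.07 with it; limma adjusted p = 0.998 and 0.144).

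Itga4, the α4 chain of the VCAM-1 and MAdCAM-1 receptors, was at 15.4, 27.4 and 11.5 FPKM in the control libraries, compared with 17.5, 27.6 and 22.4 with Blimp-1. Replicate 2 was high with both vectors and hardly differed between them (1.0%), replicate 1 differed by 13.7%, and replicate 3 by 95.7%. Mean levels were 18.1 ± 8.28 and 22.5 ± 5.07 FPKM (SD, n = 3 each), with a log2 fold change of 0.37 (SE 0.18 with the block, limma adjusted p = 0.301). In fits without the block, which left a replicate unpaired, it was 0.10 without empty vector replicate 3 and 0.36 without Blimp-1 replicate 3. In fits of the same kind it was 0.21 without Blimp-1 replicate 2 and 0.70 without empty vector replicate 2. In the blocked fit it was 0.09 with both replicate 3 libraries left out, 0.46 without replicate 1 and 0.54 without replicate 2.

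Itgav, the αv chain of the vitronectin receptors, was at 10.2, 9.65 and 11.4 FPKM in the control libraries, compared with 13.3, 11.8 and 12.4 with Blimp-1. Each Blimp-1 library exceeded each empty vector library, and the pairs differed by 29.8%, 22.0% and 8.5%. Mean levels were 10.4 ± 0.885 and 12.5 ± 0.768 FPKM (SD, n = 3 each), with a log2 fold change of 0.24 (SE 0.07 with the block; limma adjusted p = 0.998 without the block and 0.185 with it). Itga6, the α6 chain of a laminin receptor, was at 10.5, 12.2 and 11.4 FPKM in the control libraries, compared with 11.7, 10.7 and 11.8 with Blimp-1. Its pairs went both ways, by 10.6%, -11.7% and 3.6%, and its log2 fold change was 0.01 (SE 0.08 with the block, limma adjusted p = 0.974). Itga1, the α1 chain of a collagen receptor, was at 0.0355, 0.0333 and 0 FPKM in the control libraries, compared with 0.0261, 0.0276 and 0.0283 with Blimp-1. Apart from the value listed at 0, these correspond to an estimated 7 to 14 reads, so Itga1 was not tested and no difference was detectable at this depth.

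Itgb7, the β7 chain of the gut-homing receptors, was at 227, 248 and 291 FPKM in the control libraries, compared with 193, 227 and 245 with Blimp-1. It was lower with Blimp-1 by 15.0%, 8.5% and 15.6% in replicates 1, 2 and 3, and the groups overlapped. Mean levels were 255 ± 32.3 and 222 ± 26.3 FPKM (SD, n = 3 each), with a log2 fold change of -0.20 (SE 0.15 without the block and 0.06 with it; limma adjusted p = 0.998 and 0.173). Itgb7 was well covered, with an estimated 10857 reads or more per library.

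Itgae, the αE chain known as CD103, was far below its partner, at 0.904, 1.74 and 0.238 FPKM in the control libraries, compared with 1.31, 2.15 and 0.354 with Blimp-1. The replicate set its level more than the vector did: replicate 2 was the highest and replicate 3 the lowest with both vectors, and 95.4% of its variation lay between replicates. It reached the filter through 2 Blimp-1 libraries and 1 empty vector library. The log2 fold change was 0.20 (SE 0.09 with the block, limma adjusted p = 0.261). It changed sign to -0.09 without empty vector replicate 3 in the fit without the block, which left replicate 3 unpaired. With both replicate 3 libraries left out of the blocked fit it was 0.24. Summed NK cell and B cell markers were also highest in replicate 2 with both vectors, and their part in the levels of Itgae, Itga4, Itgal and Itgb3, which were highest there too, was not tested.

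Itgb3, the β3 chain that pairs with αv, was at 21.5, 39.3 and 25.8 FPKM in the control libraries, compared with 15.2, 30.3 and 23.4 with Blimp-1. It was lower with Blimp-1 by 29.4%, 22.9% and 9.3%, so that Itgb3 and its partner Itgav differed between the vectors in opposite directions in each pair. Mean levels were 28.9 ± 9.27 and 23.0 ± 7.57 FPKM (SD, n = 3 each), with a log2 fold change of -0.33 (SE 0.29 without the block and 0.09 with it; limma adjusted p = 0.998 and 0.158). Fits that dropped a single library had no block and so left a replicate unpaired. In them Itgb3 was at -0.09 without empty vector replicate 2 and -0.07 without Blimp-1 replicate 1. It was at -0.51 without empty vector replicate 1 and -0.54 without Blimp-1 replicate 2. With whole pairs left out of the blocked fit it was at -0.25, -0.31 and -0.42 without replicates 1, 2 and 3. The platelet gene Itga2b, whose product also pairs with β3, was at 0.721 to 0.998 FPKM, within the low platelet marker sum given above.

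With both replicate 3 libraries left out, the blocked fit called Itgal (limma adjusted p = 0.0149), Itgb1 (adjusted p = 0.0177) and Itgav (adjusted p = 0.0116) as higher and Itgb3 (adjusted p = 0.000592) as lower, but not Itgb7 (adjusted p = 0.0669). That fit has 1 residual degree of freedom and takes most of its error from the common variance trend, with 23.2 prior degrees of freedom, and it called 5.57% of all 10667 genes as higher and 6.7% as lower. Without pair 1 or pair 2 none of these genes was called (adjusted p = 0.681 and 0.163 for Itgal, 0.681 and 0.137 for Itgb1).

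Ratios between subunits within a library do not depend on how libraries are scaled. The ratio of Itgb7 to Itgb1 was 5.40, 5.76 and 5.60 in empty vector replicates 1, 2 and 3 and 3.84, 4.37 and 3.50 with Blimp-1. Means were 5.59 ± 0.178 and 3.90 ± 0.437 (SD, n = 3 each). Among the 6 ratios between the 4 β chains, that of Itgb7 to Itgb1 was the only one whose groups did not overlap. Itgb1 was higher and Itgb7 lower in 3 of 3 pairs, each as for 22.8% of all genes. How often the ratios of other gene pairs separate the groups was not computed. The ratio of Itgb2 to Itgb1 was lower in each pair, at 2.61, 2.49 and 2.26 against 2.27, 2.10 and 1.69, as was that of Itgb7 to Itgb2, at 2.07, 2.32 and 2.48 against 1.69, 2.08 and 2.07. The ratio of Itgb1 to Itgb3 was higher with Blimp-1 in each pair, at 1.96, 1.09 and 2.01 against 3.32, 1.71 and 2.99, as was that of Itgb2 to Itgb3, at 5.10, 2.72 and 4.54 against 7.54, 3.6 and 5.06. The ratio of Itgb7 to Itgb3 went both ways. These ratios were computed with the levels above in view and were not tested.

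**Figure D3:**
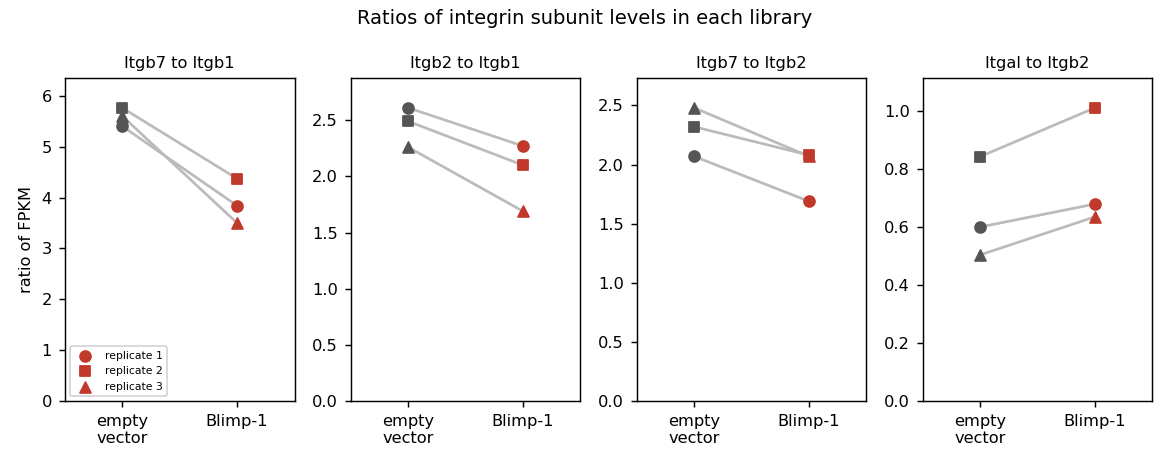
Ratio of FPKM between 2 integrin subunits in each library, for 4 pairs of genes. Grey symbols are the empty vector, red symbols are Blimp-1, shapes mark the replicate and lines join libraries of the same replicate number. All axes start at 0. Itgb7 to Itgb1 is between 5.40 and 5.76 in the control libraries and between 3.50 and 4.37 with Blimp-1, while Itgal to Itgb2 overlaps between the vectors and is higher with Blimp-1 in each pair.

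Among the 7 ratios of an α chain to a β partner, the groups of each overlapped. Itgal to Itgb2 was 0.600, 0.842 and 0.504 with the empty vector and 0.679, 1.01 and 0.635 with Blimp-1, higher in 3 of 3 pairs. Itga4 was at 0.0726 ± 0.0358 of Itgb7 in the control libraries and 0.101 ± 0.0179 under Blimp-1 (SD, n = 3 each), so Itgb7 was far above Itga4 in each library. Itgae and Itga4 together came to 0.0403 to 0.131 of Itgb7. The summed α chains that can pair with β1 were instead at 1.20 to 2.15 times Itgb1, and this ratio was lower with Blimp-1 in 3 of 3 pairs, at 1.81 ± 0.308 against 1.45 ± 0.256 (SD, n = 3 each). The largest part of this sum was Itga7, itself lower in 3 of 3 pairs, while Itgb1 was higher. Taken singly, Itga4 to Itgb1 was higher in 1 of 3 pairs, Itgav to Itgb1 in 2 and Itga6 to Itgb1 in 0. As shares of all 26 subunits, Itgb1 went from 7.58% ± 0.669 to 9.66% ± 1.46 and Itgb7 from 42.3% ± 3.25 to 37.3% ± 1.71 (SD, n = 3 each), both without overlap. Itgav, from 1.74% ± 0.174 to 2.12% ± 0.327, was the third member without overlap. Itga7, not a member, went from 5.54% ± 0.736 to 4.23% ± 0.701, also without overlap. In FPKM the groups of Itgb1, Itgb7 and Itga7 overlapped, and these shares have no counterpart over all genes.

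The variation of each gene over the 6 libraries was split into a part between replicates, a part between vectors and a rest. The part between vectors was 69.4% for Itgav, 44.4% for Itgb1, 32.9% for Itgb7 and 25.0% for Itgal, against a median of 9.5% over all genes tested. It was 17.8% for Itga4, 16.0% for Itgb3, 9.0% for Itgb2, 4.2% for Itgae and 0.1% for Itga6. The part between replicates was largest for Itgae (95.4%), Itgb2 (88.0%), Itgb3 (80.9%) and Itgal (74.4%), where the median of all genes was 75.5%. Itga6 was the exception, with 84.6% in neither part.

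**Figure D4:**
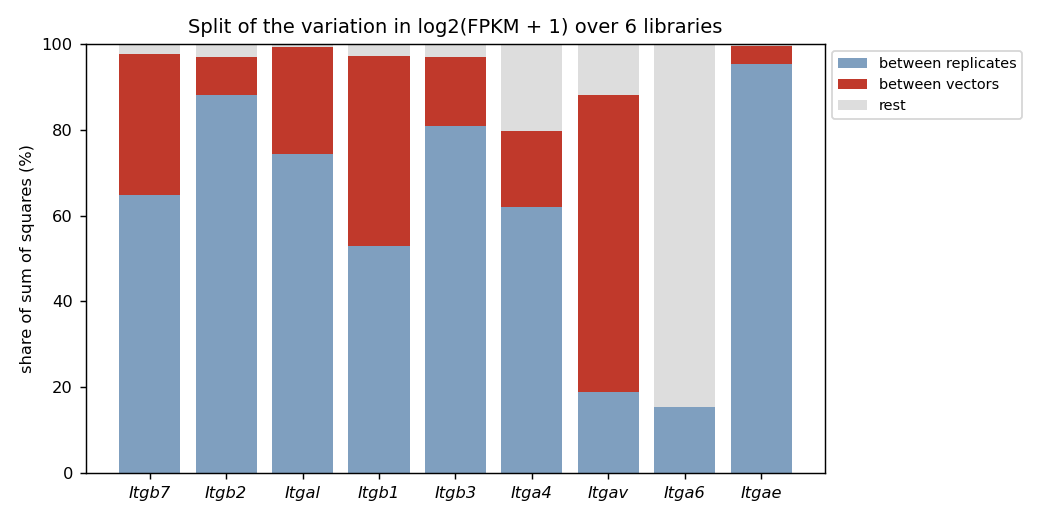
Share (%) of the sum of squares of log2(FPKM + 1) over 6 libraries that lies between replicates (blue), between vectors (red) and in neither (grey), for the 9 tested members. Itgav has the largest vector share, 69.4%, Itgae has 95.4% between replicates, and Itga6 has 84.6% in neither.

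By the fixed rule on likeness, the genes at a mean of 5 FPKM or more whose log2 values followed a member most closely over the 6 libraries were Themis (Pearson r = 0.993) and Etnk1 (0.991) for Itgal, Heg1 (0.992) and Pts (0.990) for Itga4, Ppp1cb (0.966) and Lpin2 (0.961) for Itgb1, and Ppp4c (0.998) and Gm6644 (0.996) for Itgb7. For Itgb2 they were Ciao2a (0.996) and Cct4 (0.990), for Itgb3 Fiz1 (0.996) and Gm11346 (0.994), for Itgav Fam219b (0.983) and Prdx3 (0.961), and for Itga6 Zfp954 (0.944) and Runx1 (0.942). Each was the best of 8093 genes over 6 libraries that share replicates, so these are descriptions. Among the members, Itgal and Itga4 followed each other (r = 0.913), while Itgal and its partner Itgb2 did not (r = -0.586).

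Of the 16 other integrin subunits 6 were tested, and limma called 0 of them with or without the block. Itga7, the α7 chain of a laminin receptor best known from muscle, was more abundant than Itga4, at 25.9, 35.8 and 39.1 FPKM in the control libraries, compared with 18.2, 29.1 and 28.7 with Blimp-1. It was lower in 3 of 3 pairs (log2 fold change -0.40, SE 0.07 with the block, limma adjusted p = 0.141). Itga3, the α3 chain of another laminin receptor, was higher in 3 of 3 pairs, at 6.95, 3.05 and 3.37 against 9.22, 4.21 and 4.26 FPKM (0.33, limma adjusted p = 0.144 with the block). The log2 fold changes moved in fits without the block that dropped a single library and so left a replicate unpaired. That of Itga3 was 0.64, 0.15 and 0.21 without empty vector replicates 1, 2 and 3, and 0.01 without Blimp-1 replicate 1. That of Itga7 was -0.19 without Blimp-1 replicate 1. In the blocked fit without replicates 1, 2 and 3 in turn, Itga3 was at 0.315, 0.315 and 0.363. In these fits Itga7 was at -0.362, -0.46 and -0.389. Itgb5, an αv partner, was at 5.27 ± 1.55 and 5.25 ± 1.31 FPKM (SD, n = 3 each). The remaining 10 subunits, Itga8, Itga9, Itga10, Itga11, Itga2b, Itgad, Itgax, Itgb4, Itgb6 and Itgb8, did not reach the filter. With both replicate 3 libraries left out, the blocked fit called Itga7 as lower (limma adjusted p = 0.00153) and Itga3 as higher (adjusted p = 0.00602).

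Genes that regulate the switch of integrins to their active state, for or against it, were counted beside the subunits. The counts pool both kinds. Of 23 in the list, 19 were tested and limma called 0, with or without the block. In 3 of 3 pairs 5 were higher and 4 lower, against 22.8% and 22.8% of all genes. The median log2 fold change was -0.01. The most abundant were Fyb, an adaptor that links the T cell receptor to integrins (log2 fold change 0.19), the GTPase Rap1b (0.08) and Fermt3, which encodes kindlin-3, a direct activator of β tails (-0.03). Skap2, another adaptor of this pathway, was higher without overlap of the groups, as 1 of the 19 genes and 2.29% of all genes. It was at 11.4, 11.6 and 8.38 FPKM in the control libraries against 14.1, 13.7 and 12.0 with Blimp-1 (limma adjusted p = 0.149 with the block). Rap1a, also a GTPase of this switch, had a log2 fold change of 0.17 (limma adjusted p = 0.237 with the block). Skap2 and Rap1a had the smallest p of this list without the block. With the block Rasgrp2 had the smallest, and it was lower in 3 of 3 pairs (log2 fold change -0.44, limma adjusted p = 0.141).

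Of 27 genes of integrin signalling and adhesion adaptors 21 were tested and 0 called, with a median log2 fold change of 0.07. In 3 of 3 pairs 7 were higher and 2 lower, against 22.8% and 22.8% of all genes. Cd47, an integrin-associated membrane protein, had 0.10, the kinase gene Ptk2b 0.07 and the actin regulator Vasp -0.04. Ilk, a scaffold at β tails, was lower in 3 of 3 pairs (-0.21, limma adjusted p = 0.180 with the block), and its partner Lims1 was higher in 3 of 3 (0.17, adjusted p = 0.292).

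Of 22 integrin ligand genes 9 were tested and 0 called. In 3 of 3 pairs 4 were higher and 3 lower, against 22.8% and 22.8% of all genes. Icam2, a ligand of LFA-1, was at 13.9, 28.4 and 21.1 FPKM in the control libraries, compared with 6.39, 19.7 and 17.9 with Blimp-1, lower in 3 of 3 pairs (log2 fold change -0.58, limma adjusted p = 0.156 with the block). Thy1, which binds integrins of other cells, had -0.30 (limma adjusted p = 0.144 with the block), Tgfb1, which αv integrins can activate, -0.17 (adjusted p = 0.252), and Lamc1, a laminin chain, 0.40 (adjusted p = 0.141). The median of this list was 0.10.

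Of 13 other homing receptors and regulators 11 were tested and 0 called, with a median of 0.10. In 3 of 3 pairs 4 were higher and 2 lower, against 22.8% and 22.8% of all genes. Cd44, a hyaluronan receptor of activated T cells, was higher without overlap of the groups, as 1 of the 11 genes and 2.29% of all genes. It was at 42.1, 40.4 and 31.0 FPKM in the control libraries, compared with 53.1, 44.2 and 45.3 with Blimp-1 (log2 fold change 0.33, limma adjusted p = 0.171 with the block). Selplg, a selectin ligand, had -0.03, and Ccr7, a chemokine receptor, -0.16. Klf2, a transcription factor of lymph node homing, had -0.49 (limma adjusted p = 0.141 with the block). Cxcr3, another chemokine receptor, had the smallest p of this list in the blocked fit. It was higher in 3 of 3 pairs (0.42, limma adjusted p = 0.141). Of the 10 genes of the TGF-β pathway, which is known to induce Itgae, 10 were tested and 0 called. Here 4 were higher and 1 lower in 3 of 3 pairs, beside the same 22.8% and 22.8% of all genes. Their most abundant members were Runx3 (0.13), Tgfbr2 (-0.01) and Smad4 (0.10), and the list median was 0.04.

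The same blocked fit without the replicate 3 libraries, beside its share of all genes given above, called genes of 3 of these 5 lists. It had 1 higher and 1 lower of 19 genes of integrin activation, 3 higher and 2 lower of 9 ligand genes, and 4 higher and 3 lower of 11 homing receptors and regulators. It called 0 of 21 genes of signalling and adhesion adaptors and 0 of 10 of the TGF-β pathway.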

How the data were processed

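The authors deposited values per RefSeq transcript for 6 libraries, taken here as FPKM. No label or header names the unit, which was inferred from Cufflinks in the notes and from the values. Build mm9 and the tools Cufflinks 2.2, CASAVA 1.8.2 and Partek 6.6 appear, without roles, in the submitters' processing notes. Per the labels, TruSeq libraries were read for 50 cycles, single end. Aligner, annotation release and strand setting: not given in the sources used here. Zeros can be failed estimates.

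Transcripts were named by accession or symbol with a GRCm38.p6 gene table (29306 and 375 of 29868, while 169 kept their own symbol and 18 had none) and summed per gene. Depth was estimated from the most frequent value of 1 read, 1 / (FPKM × length), of genes with 1 transcript. The labels name separate biological replicates for each vector.

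Log2(FPKM + 1) was fitted with limma 3.58.1 in R 4.3.3, with a mean-variance trend and Benjamini-Hochberg adjustment at 0.05 over the 10864 genes that reached 1 FPKM in 3 or more of 6 libraries. The 1 FPKM added before the log understates changes of low genes. For Itgae the log2 fold change was 0.20 with 1 added, 0.40 with 0.1 and 0.46 with 0.01. Same-numbered libraries deviated together (correlations of deviations from vector means of 0.80, 0.81 and 0.70, with -0.54 to -0.25 for other numbers), so the replicate number entered a second fit as a block. Deviations from a vector mean cancel out, so the negative correlations for other replicate numbers are partly built in. The numbers come from the sample titles. SDs of log2 differences were 0.227, 0.186 and 0.323 in pairs 1, 2 and 3.

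Members, lists and alternatives were chosen with earlier results of these data known. Named genes were Prdm1, the 10 members, and the 2 genes most like each member. From each list the 3 with the highest mean were named. The 2 with the smallest p at 5 FPKM or more were named too, by the fit without the block. Cell type markers, low subunits, Rasgrp2 and Cxcr3 were named besides, after their values were seen. Of the genes this rule names, 1 is not reported here.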

Additional observations from a re-analysis of the deposited data

How the results depend on the processing

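Of 21 alternatives 18 were planned and 3, the block with median scaling, with quantile normalization and with a pseudocount of 0.1, were added after seeing the data. The number of genes called over the whole table was 0 without the block. It was 2 with the replicate block and 2 in each of the 3 added fits, and 1 with median scaling and without the block. It ran from 0 to 1309 when libraries were left out, the highest without both replicate 3 libraries and with the block (8 without both replicate 2 libraries). Without the block no single library changed it beyond 1, which was without empty vector replicate 2. The number of integrin genes called was 0 in each fit except the blocked fit without both replicate 3 libraries, where it was 4, and so ran from 0 to 4 when libraries were left out. The replicate block changed no other call of an integrin gene. Log2 fold changes kept their sign in 21 of 21 alternatives for Itgal (0.12 to 0.46), Itgb1 (0.17 to 0.41), Itgb7 (-0.28 to -0.11), Itgb3 (-0.54 to -0.07), Itga4 (0.09 to 0.70), Itgav (0.19 to 0.31) and Itgb2 (0.01 to 0.11). That of Itga6 changed sign in 5 and that of Itgae in 1 of 14, since Itgae missed the filter in the others. Fits without libraries kept the filter of 3 libraries. Those without a single library had no block, so a replicate was left unpaired in them. Depth limits Itga1 and Itgae.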
